A study of Mus musculus with 3 samples.

Results

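The transcripts of p53 and of genes that p53 controls, or that control it, were followed in mouse tail-tip fibroblasts on day 8 of reprogramming. The set holds 30 genes: Trp53, which encodes p53, its inhibitors Mdm2 and Mdm4, and 27 further target genes of the cell cycle, of apoptosis, of stress metabolism and of DNA repair. They were chosen by name from knowledge of the pathway, with earlier results of these data known. Each was read from the brightest of its array probes. All 30 were found among the 20825 genes named on the array, and all 30 were well above background on all 3 arrays, as were 12887 genes in all.

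Cells were isolated from tail tips and given 4 reprogramming factors (Oct4, Sox2, Klf4 and c-Myc), which all groups share. The groups were old p16-/- cells from donors aged 22 months that lack p16, old wild-type (WT) cells from donors aged 22 months, and young WT cells from donors aged 2 months. Each group has 1 array of total RNA here. The submitters describe separate experiments on cells of different donors, but 1 array per group is analysed here. How many donors an array stands for, the strain, the sex and the kind of p16 allele are details not given in the sources used here.

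p53 is a transcription factor that is held at low activity by Mdm2, a ubiquitin ligase that marks it for destruction, and by Mdm4, which masks its activation domain. DNA damage, forced expression of oncogenes such as Myc, and the protein Arf, which blocks Mdm2, release p53, which then switches on genes that stop division, repair DNA or kill the cell. In fibroblasts given reprogramming factors the pathway is known as a barrier: loss of p53 or of the Cdkn2a locus, which encodes both p16 and Arf, raises the yield of pluripotent colonies. p53 is controlled mainly as a protein, so that the level of Trp53 RNA says little of its activity, which is usually read from the RNA of its targets.

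The arrays were of like quality. Between 57.4% and 61.6% of 43020 spots were well above background, no spot was saturated, and all 3 arrays lay on 1 slide and were read in 1 scan. All 12 fibroblast markers were above background on every array, but they did not move together. For old p16-/- over old WT, 3 of the 12 lay above 0 and 9 below (median log2 ratio -0.12), with the surface marker Thy1 at -3.98 and the growth factor receptor gene Pdgfra at 1.61 as the extremes. The arrays also differed in transcripts that belong to other programmes. Of 15 macrophage markers, 7 were above background on old p16-/-, against 14 on old WT and 14 on young WT, with summed signals of 8.26 in old p16-/-, 11.999 in old WT and 19.6 in young WT. Between old p16-/- and old WT, 12 of them were lower and 3 higher (Mrc1, Laptm5 and the leukocyte marker Ptprc). Itgam was the largest part of these macrophage sums, at 6.66 in old p16-/-, 8.46 in old WT and 8.55 in young WT. The summed signal of 19 interferon response genes was 10.02 in old p16-/-, 82.4 in old WT and 26.9 in young WT, and that of 24 cell cycle genes was 216 in old p16-/-, 140 in old WT and 177 in young WT. Of 6 Schwann cell markers, 5 were above background on each array, with summed signals of 5.13 in old p16-/-, 2.29 in old WT and 1.24 in young WT. For old p16-/- over old WT, 4 of these 5 lay above 0, and Mbp was at -1.11. Of 6 muscle markers, 2 were above background, with summed signals over the list of 0.78 in old p16-/-, 3.40 in old WT and 3.46 in young WT. Acta1 made up most of these muscle sums (0.70, 3.15 and 3.39 on the same arrays). Of 6 endothelial markers, 3 were above background, with summed signals over the list of 2.92 in old p16-/-, 2.89 in old WT and 2.80 in young WT. Kdr made up most of these sums (2.75, 2.68 and 2.49 on the same arrays). For old p16-/- over young WT, Kdr was at 0.14, Pecam1 at 0.24 and Tek at -1.20. The part of these transcripts in the results on the p53 genes was not tested. Y-linked Eif2s3y was above background in young WT alone and Xist in the old groups alone, so age and sex-linked expression cannot be told apart between old and young arrays.

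Signals are given as relative signal, the background-subtracted probe intensity divided by the 75th percentile of its own array, so that a value of 1 means a signal at that percentile. Probes differ in how strongly they bind, so values are compared between arrays and not between genes. A log2 ratio is the difference of the log2 relative signals of a pair of arrays, and 1 log2 unit is 2-fold. With 1 array per group no test can be run and no difference has a replicate check. The one error that could be measured is that of spots on the same array: for probes spotted 10 times it gave an SD of 0.08 for a log2 ratio in each comparison, and of 0.16 where the signal was under 300. This covers neither animals nor cultures. In bulk RNA, fewer cells that express a gene and less RNA per cell cannot be told apart.

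The start sites of the genes were searched for part of the letters that p53 is known to bind. RefSeq start-site windows of the GRCm38.p6 build, from 250 bases before to 50 bases after the start, were at hand for 22 of the 30 genes. The p53 half-site consensus, a motif of 10 bases that reads the same on both strands, stood in at least 1 window of 9 of these 22 genes (40.9%), against 2582 of 27025 genes in all (9.55%). Some genes have more than 1 window, and Polk and Sesn1 also had a window without a match. No window of the 22 genes held more than 1 half-site. The 9 genes were Trp53, Mdm2, Ccng1, Gadd45a, Bax, Aen, Ei24, Sesn1 and Polk. A match describes letters and is not a binding site, and functional p53 sites are also known outside such windows, for example in the first intron of Mdm2. The 4 windows shown here are those of the p53 inhibitor Mdm2, of the cell cycle target Ccng1 and of the apoptosis targets Bax and Ei24. They are written 5′ to 3′ along the gene, with the half-site in capitals.
Mdm2 (chr10:117710709-117711008, minus strand): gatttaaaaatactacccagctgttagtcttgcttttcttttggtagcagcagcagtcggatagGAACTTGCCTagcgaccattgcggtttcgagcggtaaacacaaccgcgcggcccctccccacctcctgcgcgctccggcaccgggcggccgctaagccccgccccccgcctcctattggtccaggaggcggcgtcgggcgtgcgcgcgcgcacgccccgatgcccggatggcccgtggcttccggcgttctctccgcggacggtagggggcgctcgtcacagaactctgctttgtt
Ccng1 (chr11:40755237-40755536, minus strand): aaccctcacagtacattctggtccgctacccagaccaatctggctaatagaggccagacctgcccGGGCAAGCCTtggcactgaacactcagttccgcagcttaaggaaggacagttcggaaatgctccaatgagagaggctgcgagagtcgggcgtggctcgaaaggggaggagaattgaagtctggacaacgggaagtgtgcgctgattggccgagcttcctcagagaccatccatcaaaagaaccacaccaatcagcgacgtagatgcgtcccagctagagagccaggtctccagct
Bax (chr7:45466849-45467148, minus strand): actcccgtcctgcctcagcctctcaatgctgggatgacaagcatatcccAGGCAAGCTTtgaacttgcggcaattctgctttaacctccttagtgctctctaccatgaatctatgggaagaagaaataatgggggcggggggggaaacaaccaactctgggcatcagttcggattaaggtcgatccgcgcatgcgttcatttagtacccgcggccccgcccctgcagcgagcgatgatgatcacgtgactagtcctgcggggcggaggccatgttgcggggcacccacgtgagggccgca
Ei24 (chr9:36797285-36797584, minus strand): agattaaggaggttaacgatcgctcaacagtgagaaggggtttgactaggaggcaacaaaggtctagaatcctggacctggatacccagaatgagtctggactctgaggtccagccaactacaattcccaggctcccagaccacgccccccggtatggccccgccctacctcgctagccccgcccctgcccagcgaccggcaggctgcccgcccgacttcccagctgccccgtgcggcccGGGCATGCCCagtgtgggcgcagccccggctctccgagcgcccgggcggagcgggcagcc
The half-site began 186 bases before the start in Mdm2, 185 bases before it in Ccng1, 201 bases before it in Bax and 10 bases before it in Ei24. Between old p16-/- and old WT the 9 genes with a half-site had a median log2 ratio of 0.18, against 0.11 for the 13 genes with a window and no half-site. Between old WT and young WT the medians were -0.00 with and -0.04 without a half-site, and between old p16-/- and young WT 0.175 with and 0.183 without one.

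**Figure D1:**
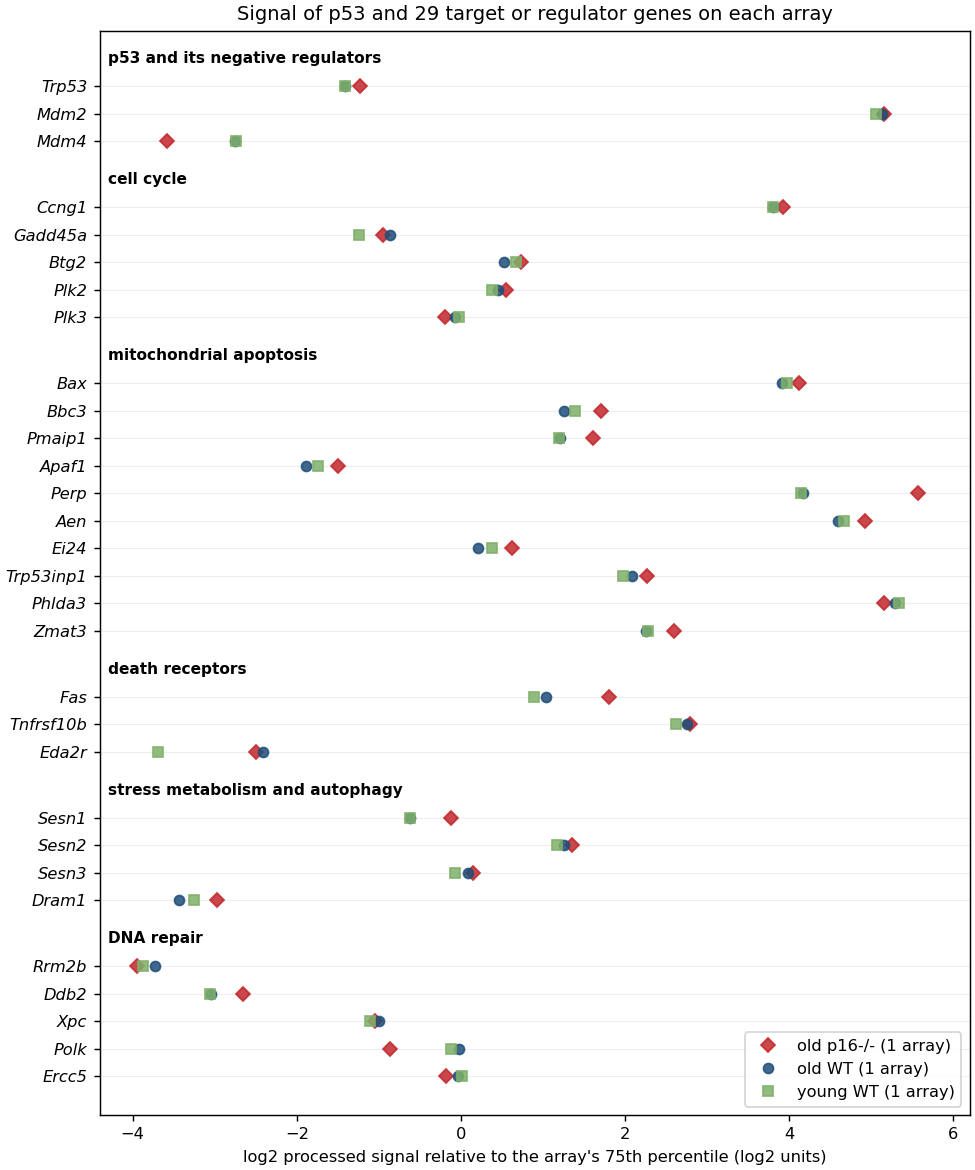
Relative signal (log2, x axis) of each of the 30 genes on the old p16-/- array (diamonds), the old WT array (circles) and the young WT array (squares), 1 array per group. Rows are grouped by role and should not be compared with each other, since probes differ. The signals of 25 genes lay within 1.5-fold of each other over the 3 arrays, and the old p16-/- array was highest for 21 of 30 genes, against 46.1% of all genes above background on all arrays.

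Over the 3 arrays together, 25 of the 30 genes stayed within 1.5-fold from their lowest to their highest array, as did 9634 of the 12887 genes above background on all arrays (74.8%). The exceptions were Perp, Eda2r, Fas, Mdm4 and Polk. Old p16-/- was the highest array for 21 of the 30 genes (70%), old WT for 5 and young WT for 4. Of the genes above background on all arrays, old p16-/- was highest for 46.1%, old WT for 27.2% and young WT for 26.7%.

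Old WT was set beside young WT to ask what donor age changes in cells on their way to pluripotency. The p53 genes were nearly level between these arrays. The median log2 ratio of the 30 genes was 0.01, against -0.01 for all 14546 counted genes, and 16 genes lay above 0 and 14 below. The number above 0 ran between 12 (each array's median as the scale) and 18 (quantile normalization). Of all counted genes, 45.4% lay above 0, and 37.2% and 47.4% with these 2 scalings. The log2 ratio was within 0.2 of 0 for 28 of the 30 genes and for 65% of all counted genes, a limit chosen after the values were seen. These shares are not like for like. The counted genes include 1325 that were above background on only 1 array of the pair, whereas all 30 genes were above it on both. Eda2r was the 1 gene at least 2-fold higher in old WT, and no gene was at least 2-fold lower, where 2.89% and 3.22% of all counted genes were. The same counts held at 1.5-fold, where 6.58% of all counted genes were higher and 5.04% lower.

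p53 itself and its inhibitors were nearly equal between the WT arrays. Trp53 had a relative signal of 0.376 in old WT and 0.377 in young WT, a log2 ratio of -0.00. Mdm2, a direct p53 target as well as its inhibitor, had 35.1 in old WT and 33.4 in young WT, a log2 ratio of 0.07. Mdm4 had 0.149 in old WT and 0.149 in young WT. These differences lie within 1 SD of the spot noise of a log2 ratio over probes of all signals (0.08). For probes with a signal of 1000 and over, as Mdm2 has, the SD of spots on 1 array was smaller (0.045 in old WT and 0.046 in young WT).

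Among the targets that act on the cell cycle, the growth arrest gene Gadd45a was the one that differed most, at 0.550 in old WT and 0.424 in young WT (log2 ratio 0.38). The antiproliferative gene Btg2 was at -0.15 and the cyclin gene Ccng1 at -0.00. The polo-like kinase genes Plk2 and Plk3 were at 0.07 and -0.05. The apoptosis group of 10 genes leaves out the death receptors, which are given below. Its log2 ratios ran between -0.17 for Ei24 and 0.11 for Trp53inp1, with a median of -0.06. The number below 0 was 7, and between 6 (quantile normalization) and 9 (normexp, each array's median) under other scalings. Of all counted genes, 45.4% lay above 0, and between 37.2% (each array's median) and 47.4% (quantile normalization) under these other scalings.

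The receptor Eda2r, a member of the tumour necrosis factor receptor family and an X-linked p53 target, had a relative signal of 0.188 in old WT and 0.0772 in young WT, a log2 ratio of 1.28 (2.44-fold). Of all counted genes, 1.89% were as high or higher. Its second probe, which carries another transcript accession, gave 0.0806 in old WT and 0.0776 in young WT, a log2 ratio of 0.05, so the difference was seen with 1 of 2 probes. The brighter probe had a processed signal of 424 in old WT and 180 in young WT, and the young WT value is under 300. With the background corrected in another way (normexp) its log2 ratio was 0.84. The sex-linked genes above differ between the same arrays, and their part in this value was not tested. The other death receptors Fas and Tnfrsf10b were at 0.15 and 0.13. The stress genes Sesn1, Sesn2, Sesn3 and Dram1 lay between -0.18 and 0.16, and the repair genes Rrm2b, Ddb2, Xpc, Polk and Ercc5 between -0.04 and 0.15.

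Old p16-/- was set beside old WT to ask what the loss of p16 changes in old cells. The old WT array is the same as in the comparison with young WT, so these values are not independent of those. A low old WT reading lowers the ratio of old WT to young WT and raises that of old p16-/- to old WT. Most log2 ratios of the p53 genes lay a little above 0, those of Perp and Fas the furthest. Mdm4 and Polk were lower in old p16-/- by 1 of 2 probes each. The median log2 ratio of the 30 genes was 0.15, against 0.03 for all 14691 counted genes. Of the 30 genes, 21 lay above 0 (70%), against 53.5% of all counted genes. At a signal of at least 1000 it was 17 of 23 genes, against 58.9% of all genes. Some of the 21 lay within 2 SDs of spot noise, such as Ccng1 at 0.13, Plk2 at 0.11 and Mdm2 at 0.03. Perp was the 1 gene at least 2-fold higher and none was at least 2-fold lower, where 5.98% and 6.51% of all counted genes were. At 1.5-fold, 2 genes were higher (Perp and Fas) and 2 lower (Mdm4 and Polk), where 11.7% and 12.4% of all counted genes were. Such differences were therefore no more frequent among the 30 genes than on the array as a whole.

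**Figure D2:**
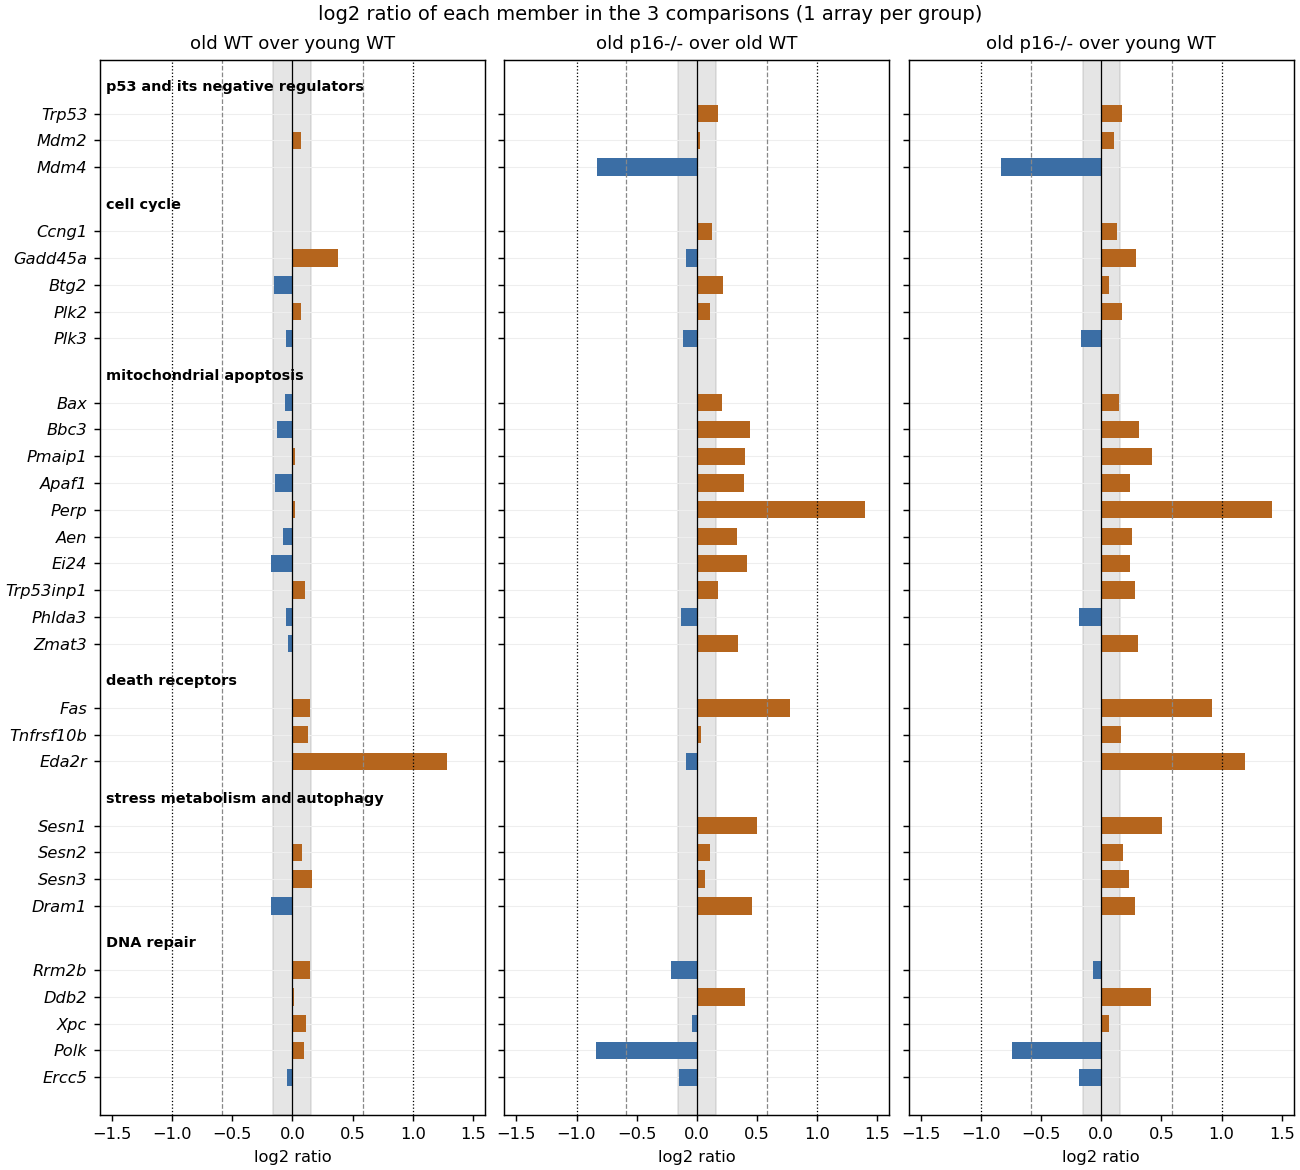
log2 ratio (x axis) of each gene in the 3 comparisons, 1 array per group, bars above 0 in brown and below 0 in blue. Grey bands mark 2 SDs of spot noise on either side of 0, dashed lines 1.5-fold and dotted lines 2-fold. Eda2r stands out at 1.28 in old WT over young WT and Perp at 1.40 in old p16-/- over old WT. In old p16-/- over old WT, 9 of 10 apoptosis genes other than death receptors lie above 0. Of all counted genes, 53.5% lie above 0 in the latter comparison.

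p53 and its inhibitors did not move as 1 group. Trp53 had a relative signal of 0.425 in old p16-/- and 0.376 in old WT, a log2 ratio of 0.18 (1.13-fold). Mdm2 had 35.8 in old p16-/- and 35.1 in old WT, a log2 ratio of 0.03. Mdm4 had 0.0837 in old p16-/- and 0.149 in old WT, a log2 ratio of -0.83, whereas its second probe gave 0.0812 in old p16-/- and 0.0835 in old WT, a log2 ratio of -0.04. Both Mdm4 probes carry the same transcript accession, so the array holds 2 readings of Mdm4 that differ.

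The apoptosis genes other than the death receptors were the largest group and lay mostly to one side. Of 10 genes, 9 were above 0, against 53.5% of all counted genes, with a median log2 ratio of 0.37. Phlda3, an inhibitor of the survival kinase Akt, was the exception at -0.13. This count of 9 of 10 was the same with all 3 other scalings or background corrections (each array's median, quantile, normexp). Of all counted genes, 60.1%, 50% and 53.1% lay above 0 under these.
Perp, which encodes a membrane protein that p53 induces in dying cells and that also builds desmosomes in skin, had a relative signal of 47.5 in old p16-/-, against 18.0 in old WT and 17.7 in young WT. Old p16-/- was thus well above both WT arrays, which were nearly equal. The log2 ratio was 1.40 (2.64-fold), and 3.74% of all counted genes were as high or higher. Perp was read by 1 probe, at a processed signal of 106515 in old p16-/-. Of the 8 keratinocyte markers, 6 were above background in old p16-/-, 6 in old WT and 5 in young WT, with summed signals of 4.89 in old p16-/-, 4.52 in old WT and 5.69 in young WT. For old p16-/- over old WT, 3 of the 6 counted markers lay above 0 and 3 below (median log2 ratio -0.01), between -1.24 for Lor and 0.83 for Krt14, and Krt1 and Dsg3 were not above background. Their part in the Perp value was not tested.

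The proteins Puma and Noxa, which p53 induces to neutralise survival factors at the mitochondrion, are encoded by Bbc3 and Pmaip1. Bbc3 had 3.26 in old p16-/- and 2.40 in old WT, a log2 ratio of 0.45. Pmaip1 had 3.05 in old p16-/- and 2.31 in old WT, a log2 ratio of 0.40. Bax, which encodes a pore former, had 17.4 in old p16-/- and 15.01 in old WT (0.21). Apaf1, the scaffold of the caspase-activating apoptosome, had 0.355 in old p16-/- and 0.271 in old WT (0.39). All 4 genes were thus higher in old p16-/- by less than 1.5-fold. The remaining genes of the group were Ei24 at 0.42, the RNA-binding protein gene Zmat3 at 0.34, the nuclease gene Aen at 0.33 (0.29 by its second probe) and Trp53inp1 at 0.18 (0.03 by its second probe).

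Fas, the death receptor that p53 induces at the cell surface, had a relative signal of 3.50 in old p16-/-, against 2.05 in old WT and 1.85 in young WT. The log2 ratio of old p16-/- over old WT was 0.77 (1.71-fold), and 8.37% of all counted genes were as high or higher. Tnfrsf10b, the mouse receptor for the death ligand Trail, had 6.91 in old p16-/- and 6.75 in old WT (0.03), and Eda2r was at -0.09. Of the death receptors, Fas alone was thus past 1.5-fold. All 19 counted interferon response genes were at least 2-fold lower in old p16-/- than in old WT (median log2 ratio -3.09), and their part in the Fas value was not tested.

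Sestrins restrain the growth kinase mTORC1 under stress, and Dram1 acts in autophagy. Sesn1 had 0.920 in old p16-/-, against 0.649 in old WT and 0.649 in young WT, a log2 ratio of 0.50 over old WT. Dram1 had 0.127 in old p16-/- and 0.0923 in old WT (0.46), at processed signals under 300. Sesn2 and Sesn3 were at 0.11 and 0.07. All 4 genes lay above 0, as did 53.5% of all counted genes, and none of the 4 was past 1.5-fold.

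The cell cycle targets differed little, at 0.21 for Btg2, 0.13 for Ccng1, 0.11 for Plk2, -0.09 for Gadd45a and -0.12 for Plk3. Of the 5 repair genes, 4 lay below 0, and 3 with each array's median as the scale or with the next brightest probe. Of all counted genes, 53.5% lay above 0, and 60.1% and 52.5% with these 2 alternatives. Ddb2, which recognises ultraviolet damage, had 0.159 in old p16-/- and 0.121 in old WT (0.40). Its partner in nucleotide excision repair, Xpc, was at -0.04, the repair nuclease gene Ercc5 at -0.15 and the ribonucleotide reductase subunit gene Rrm2b at -0.22. Polk, a polymerase that copies past damaged bases, had 0.551 in old p16-/- and 0.988 in old WT, a log2 ratio of -0.84. Its second probe gave 0.110 in old p16-/- and 0.110 in old WT, a log2 ratio of 0.00.

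**Figure D3:**
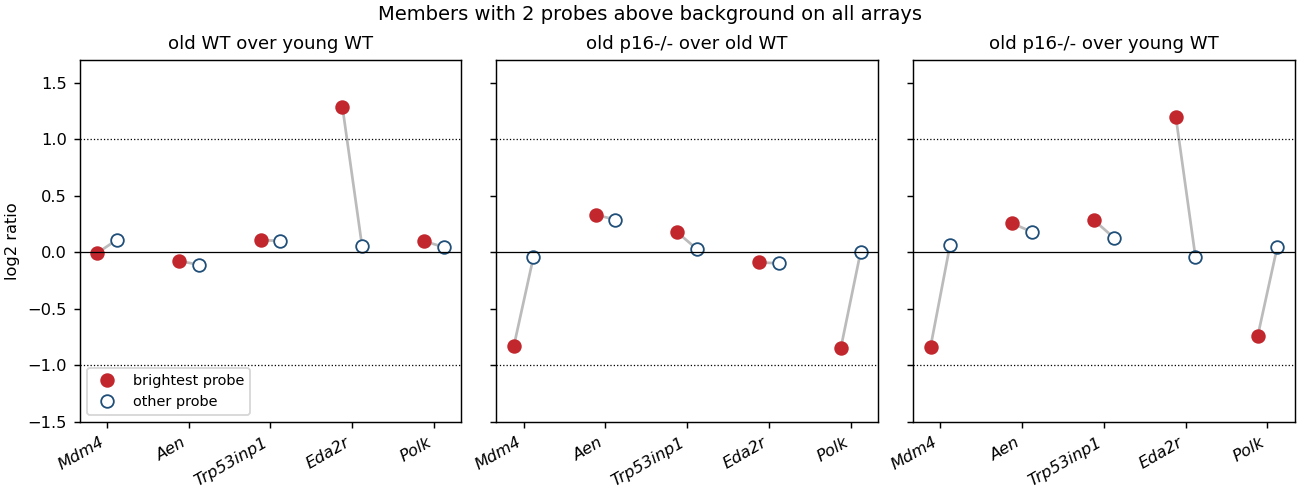
log2 ratio (y axis) by the brightest probe (filled) and by the other probe (open) of the 5 genes with 2 probes above background on all arrays, in the 3 comparisons. The probes of Aen and Trp53inp1 lie within 0.2 of each other, whereas those of Mdm4 and Polk differ in the comparisons with old p16-/- and those of Eda2r in the comparisons with young WT.

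Probe disagreement of this kind was common on these arrays. Of 491 genes whose brightest probe was at least 1.5-fold apart between old p16-/- and old WT and that had another probe above background on both arrays, 196 (39.9%) did not show a difference of that size and direction by the next brightest probe. Between old WT and young WT it was 59 of 135 genes (43.7%). Perp and Fas have 1 probe each and could not be checked in this way. Where in the transcripts the probes lie is not given in the files.

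The comparison across age and genotype together was that of old p16-/- and young WT. It shares its arrays with the other comparisons, so its values are not independent of them. The median log2 ratio of the 30 genes was 0.20, against 0.03 for all 14281 counted genes, and 24 lay above 0 (80%), against 55% of all counted genes. Perp (1.42) and Eda2r (1.20) were at least 2-fold higher in old p16-/-, and none was at least 2-fold lower, where 6.36% and 6.95% of all counted genes were. At 1.5-fold Fas (0.92) was higher too, and Mdm4 (-0.84) and Polk (-0.74) were lower, where 11.5% and 12.1% of all counted genes were. By their second probes, Eda2r was at -0.04, Mdm4 at 0.07 and Polk at 0.05.

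**Figure D4:**
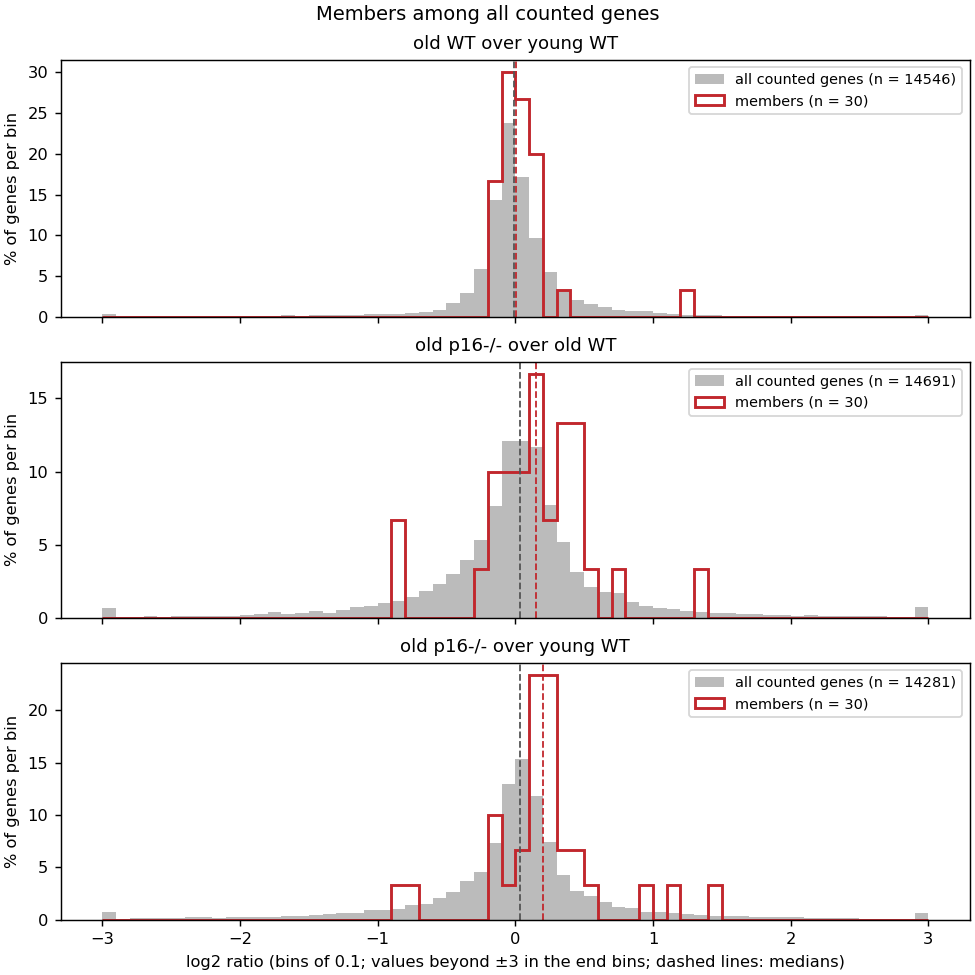
Distribution of log2 ratios (x axis, bins of 0.1) as a share of genes (y axis, %), for all counted genes (grey) and for the 30 genes (the members, red outline), with their medians as dashed lines. The median of the 30 genes is 0.01 (all counted genes -0.01) in the ratio of old WT to young WT, 0.15 (0.03) in that of old p16-/- to old WT, and 0.20 (0.03) in that of old p16-/- to young WT.

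Genes upstream of p53 were read from a second list of 20 regulators and relatives, of which 19 were counted. Chek1, a checkpoint kinase gene, stayed below the background limit on all 3 arrays. Between old p16-/- and old WT the median log2 ratio of the 19 was 0.08, none was at least 2-fold higher and 1 was lower. That gene was Cdkn2a, with a relative signal of 12.5 in old p16-/-, against 29.02 in old WT and 26.8 in young WT. Its log2 ratio was -1.21 over old WT (-1.37 by a second probe) and 0.11 for old WT over young WT. Whether these probes fall inside the deleted stretch, and whether they read p16 or Arf, cannot be taken from the files, so they serve neither as a check of the genotype nor as a measure of Arf. The damage kinase genes Atm, Atr and Prkdc were at 0.24, 0.36 and 0.22, and Chek2 was at -0.12. Ppm1d, a phosphatase gene that p53 induces and that switches the pathway off, was at 0.13.

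The p53 relatives were read as well. Trp63 had 2.28 in old p16-/-, 2.54 in old WT and 2.55 in young WT (-0.15 for old p16-/- over old WT), and a dim second probe with another transcript accession gave 1.26. Trp73 was at 0.03. Between old WT and young WT, no gene of the upstream list was 2-fold apart, and the median was -0.03.

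**Figure D5:**
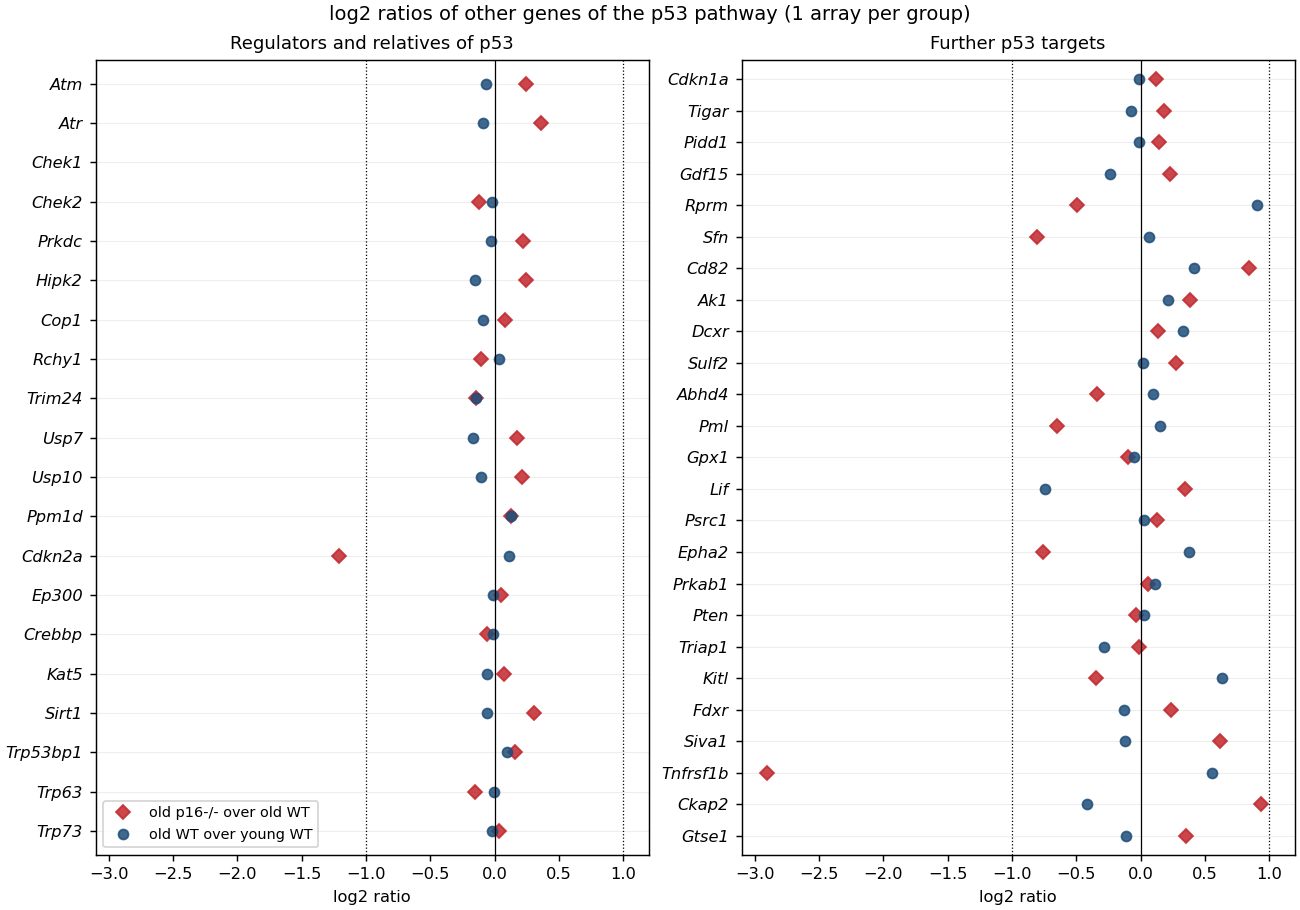
log2 ratio (x axis) of 20 regulators and relatives of p53 (left) and 25 further targets (right), for old p16-/- over old WT (diamonds) and for the ratio of old WT to young WT (circles), with dotted lines at 2-fold, 1 array per group. Chek1 has no value because it was not above background. Cdkn2a at -1.21 and Tnfrsf1b at -2.91 are the values past 2-fold, both for old p16-/- over old WT.

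A further list of 27 p53 targets had 25 on the array, all of them counted. Between old p16-/- and old WT their median log2 ratio was 0.13, with 15 above 0, none at least 2-fold higher and 1 lower. Cdkn1a, which encodes the cell cycle inhibitor p21 and is the classical p53 target, had a relative signal of 10.9 in old p16-/-, against 10.05 in old WT and 10.1 in young WT. Its log2 ratio over old WT was 0.12, from a probe spotted 10 times, and 0.38 by a second probe. Tnfrsf1b, a receptor for tumour necrosis factor, had 0.0584 in old p16-/-, against 0.438 in old WT and 0.299 in young WT (-2.91). Cd82, a membrane protein, had 8.62 in old p16-/-, 4.82 in old WT and 3.62 in young WT, with log2 ratios of 0.84 over old WT and 1.25 over young WT, and its 2 other probes gave 0.73 and 0.65 over old WT. Tnfrsf1b is also made by leukocytes. Of the 15 macrophage markers, 12 were lower in old p16-/- than in old WT, and Mrc1 (2.23), Laptm5 (0.56) and Ptprc (at least 1.33, not above background in old WT) were higher, and their part in the Tnfrsf1b value was not tested. Between old WT and young WT none of the 25 was 2-fold apart, and the median was 0.02.

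The genes of the main set lie on 15 chromosomes. On chromosome 4, which carries Cdkn2a, lie Plk3, Trp53inp1 and Sesn2, at -0.12, 0.18 and 0.11 for old p16-/- over old WT. Perp lies on chromosome 10, together with Mdm2, Apaf1, Sesn1 and Dram1, which were at 0.03, 0.39, 0.50 and 0.46. Mdm4 lies on chromosome 1 with Btg2, Phlda3 and Ercc5, and Polk on chromosome 13 with Plk2.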

How the data were processed

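Total RNA was measured on 1-colour (Cy3) Agilent arrays, 1 per group. Per the file headers, the deposited intensity values are Feature Extraction 11.5.1.1 processed signals, background-subtracted and not normalized between arrays. The value table deposited for the series repeats these intensity values (39030 of 39030 probes spotted once, relative tolerance 0.0001, medians 132, 135 and 137 for old p16-/-, old WT and young WT), so it gave no alternative.

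Control spots (1377) and marked outlier spots (246 to 267 per array) were left out, log2 signals averaged per probe, and each array's 75th percentile (2243, 2255 and 2338) subtracted. RefSeq accessions without version named 27413 of 39279 probes (GRCm38.p6 table; probes designed on mm9). The brightest probe stood for a gene. A gene was counted if any of its probes was well above background on 1 array of the pair; with 1 dim array the ratio is a bound (none among the 30). No test was possible. Every one of the 30 genes is named; of the lists of p53 regulators and further p53 targets, Cdkn2a, Cdkn1a and those past 2-fold in any comparison, with others, and a few cell type markers, as examples chosen after their values were seen. Members and lists were chosen with earlier results of these data known, and 1 item of the lists is not reported here. Python 3.11.15, numpy 2.4.6, pandas 2.3.3 and limma 3.58.1 (normexp) were used, and the ratio code was tested on simulated data.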

Additional observations from a re-analysis of the deposited data

How the results depend on the processing

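The median log2 ratios of the p53 genes kept within 0.08 of the reported values under every alternative run. That limit is the spot noise SD of the ratio of 1 probe and is wide for a median over 30 genes. The alternatives were each array's median, quantile normalization and normexp on median signals (offset 50, chosen after seeing the files, which hold no mean signal). Further ones were both-array and no filters on dim probes, the mean of a gene's probes, the next brightest probe and a signal of at least 1000. The last 2 were also chosen after seeing the data. The filters on dim probes could not change the medians of the 30 genes, which were all above background on every array. Counts of genes were small, and some changed. For old WT over young WT, the 1 gene at least 2-fold higher (Eda2r) became 0 with normexp, the mean of probes, the next brightest probe and the signal limit, and the 1 gene at 1.5-fold became 0 with the last 2. For old p16-/- over young WT, the 2 genes at least 2-fold higher became 1 under each of these 4. The 2 genes at least 1.5-fold lower in old p16-/-, in both comparisons, became 0 with the mean of probes and with the next brightest probe, and 1 with the signal limit, which Mdm4 does not reach. The next brightest probe also turned the sign of Polk to 0.0012 over old WT and 0.048 over young WT, of Mdm4 to 0.069 over young WT and of Eda2r to -0.043 over young WT. Where probes were exchanged the change follows from the probe used; for normexp the cause was not tested. Perp was past 2-fold and Fas past 1.5-fold for old p16-/- over old WT under every alternative. Only each array's median, quantile normalization and normexp could have changed these 2 values. The other alternatives could not, since Perp and Fas have 1 probe each, above background and above the signal limit on every array. The 21 of 30 genes above 0 for old p16-/- over old WT were 19 with quantile normalization and 22 with each array's median, where the median of all genes was 0.00 and 0.09. With no filter on dim probes the 30 genes kept their median of 0.15. The median of all genes then rose from 0.03 to 0.12, with 61.6% above 0, so most of the gap between them was gone. This setting also counts genes below background on both arrays, whose part in that rise was not tested. For old p16-/- over young WT it lowered the median of all genes from 0.03 to -0.06 (43.6% above 0). For old WT over young WT it lowered that median from -0.01 to -0.07 (38.8% above 0). The slide could not be fitted as a block, since there was 1. No paired analysis was possible because each group has 1 array. Signal limits 7 genes, which were under 1000 on every array, where spot noise is larger.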
